A study of Homo sapiens with 12 samples.

Results

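MHC class I and antigen presentation genes were followed as 9 genes, HLA-B, HLA-C, HLA-E, B2M, TAP1, TAP2, TAPBP, ERAP1 and NLRC5, taken by symbol from the 43236 gene symbols in the count files. All 9 had counts and all 9 were among the 15979 genes tested. The libraries are polyA RNA from MNNG/HOS cells (labelled HOS-MNNG), an established human osteosarcoma line obtained by chemical transformation of HOS cells. Cells received the vehicle DMSO or 300 nM NXP800, a small molecule under study as an activator of the kinase GCN2, for 6 h or 24 h. Each of the 4 groups, DMSO 6 h, NXP800 6 h, DMSO 24 h and NXP800 24 h, has 3 libraries, and each comparison sets NXP800 against the DMSO libraries of the same time point. The study's methods describe its experiments in general as independent repeats, and the sample labels do not say whether the 3 libraries of a group came from separate cultures, so a p-value measures the spread between these libraries. A single cell line in culture was measured, and no interferon treatment is among the labels.

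MHC class I molecules show peptides from inside the cell to CD8 T cells and natural killer cells. Each consists of a polymorphic heavy chain, here HLA-B, HLA-C or HLA-E, bound to the invariant light chain beta-2-microglobulin, encoded by B2M. Peptides made by the proteasome are pumped into the endoplasmic reticulum by the TAP1 and TAP2 transporter, trimmed by the aminopeptidase ERAP1 and placed in the groove of the heavy chain with the help of tapasin, encoded by TAPBP. NLRC5 is a transactivator of class I genes that acts with the RFX, CREB/ATF and NF-Y factors bound at their promoters, and interferons raise the transcription of most of the pathway.

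The 12 libraries held between 30810614 and 31947656 counts on genes. The share of reads outside annotated features ran from 6.66% to 8.14% in the 6 h libraries and from 2.73% to 3.67% in the 24 h libraries, so the time of treatment and the set of libraries cannot be told apart, and no DMSO level is tested between times. Of 8 osteoblast lineage markers, RUNX2, SPARC, COL1A1, SPP1 and CDH11 were counted in every library, whereas COL1A2, ALPL and SP7 had at most 12 counts. Of 10 leukocyte markers, 4 passed the filter on low counts, the defining marker PTPRC had 0 to 5 counts and MS4A1 was at 0 in all 12 libraries, while the summed counts of the 10 ran from 2000 to 4877, mostly CD68. Of 7 endothelial and epithelial markers 5 passed, and KRT8 and KRT18 reached the highest counts, 15705 to 26793. Markers moved with NXP800 too. At 6 h 1 tested osteoblast marker rose and 3 fell, 1 leukocyte marker rose and 1 fell, and 2 endothelial and epithelial markers fell. The leukocyte markers called at 6 h, ITGAM higher and CD14 lower, had 2 to 27 and 4 to 100 reads per library. At 24 h the counts were 1 up and 4 down, 1 up (CD68, log2 fold change 0.90) and 2 down, and 1 up and 3 down. Over all genes tested, 25% rose and 27.8% fell at 6 h, and 27.5% rose and 28.6% fell at 24 h. The part of the marker changes in the results was not tested.

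The heavy chain, transporter and tapasin genes lie in the major histocompatibility complex on chromosome 6 of GRCh38.p14. HLA-E spans chr6:30489509-30494194 on the plus strand, and HLA-C (chr6:31268749-31272092), HLA-B (chr6:31353875-31357179), TAP2 (chr6:32821831-32838739), TAP1 (chr6:32845209-32853704) and TAPBP (chr6:33299694-33314078) lie on the minus strand. B2M is at chr15:44711517-44718145 and NLRC5 at chr16:56989557-57083520, both on the plus strand, and ERAP1 is at chr5:96760813-96935854 on the minus strand. RefSeq promoters (GRCh38.p14, from 250 bases before to 50 after the transcript start) were at hand for 7 of the 9 genes, as 9 stretches, with none for HLA-E and NLRC5. The 200 bases before the start are printed, 5' to 3', for the heavy chains HLA-B and HLA-C, whose RNA was higher with NXP800 at 24 h, and for B2M, TAP1 and TAPBP, whose RNA was lower at 1 or both times. Capitals mark every match to a motif searched.
HLA-B (chr6:31357180-31357379, minus strand): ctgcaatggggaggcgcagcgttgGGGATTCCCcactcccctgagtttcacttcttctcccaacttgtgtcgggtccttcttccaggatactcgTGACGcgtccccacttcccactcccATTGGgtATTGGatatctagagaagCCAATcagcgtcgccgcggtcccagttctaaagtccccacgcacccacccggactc
HLA-C (chr6:31272093-31272292, minus strand): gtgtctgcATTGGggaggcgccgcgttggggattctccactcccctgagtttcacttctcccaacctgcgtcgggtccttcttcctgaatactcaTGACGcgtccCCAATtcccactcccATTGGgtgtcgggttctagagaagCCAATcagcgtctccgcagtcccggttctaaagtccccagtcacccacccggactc
B2M (chr15:44711317-44711516, plus strand): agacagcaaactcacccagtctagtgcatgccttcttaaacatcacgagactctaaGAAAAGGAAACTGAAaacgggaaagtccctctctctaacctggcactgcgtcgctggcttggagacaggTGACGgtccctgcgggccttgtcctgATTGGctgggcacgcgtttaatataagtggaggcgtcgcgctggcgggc
TAP1 (chr6:32853705-32853904, minus strand): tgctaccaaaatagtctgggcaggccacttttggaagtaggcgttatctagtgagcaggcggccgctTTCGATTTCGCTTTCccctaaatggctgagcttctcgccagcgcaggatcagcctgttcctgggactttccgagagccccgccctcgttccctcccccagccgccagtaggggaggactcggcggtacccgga
TAPBP (chr6:33314079-33314278, minus strand): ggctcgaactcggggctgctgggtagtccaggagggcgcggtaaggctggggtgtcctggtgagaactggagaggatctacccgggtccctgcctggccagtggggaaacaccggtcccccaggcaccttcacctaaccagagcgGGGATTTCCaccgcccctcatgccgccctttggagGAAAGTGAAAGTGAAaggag

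The motifs were searched as letters on both strands of the 300 bases. In HLA-B the capitals are GGGANTNCC (an NF-kB site, at position -176, matched on both strands), TGACG (the core of a cAMP response element, at -106) and CCAAT boxes at -81, -74 and -56. HLA-C holds TGACG at -105 and CCAAT boxes at -192, -95, -80 and -56, with no match to GGGANTNCC. B2M holds GAAANNGAA, the core of an interferon response element, in overlapping matches at -144 and -138, then TGACG at -75 and a CCAAT box at -49. TAP1 holds GAAANNGAA at -133 and -127 on the opposite strand, again overlapping. TAPBP holds GGGANTNCC at -55 and overlapping GAAANNGAA matches at -20 and -14.

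GAAANNGAA matched in 5 of the 7 genes, B2M, TAP1, TAP2, TAPBP and ERAP1, and in 8.11% of the 35116 promoters of this length. GGGANTNCC matched in 2 of 7 (4.35% of all promoters), TGACG in 4 of 7 (24.6%) and CCAAT in 5 of 7 (34.6%). The gamma-activated site TTCNNNGAA matched in 1 of 7, in the second stretch of TAP1 (7.66% of all), TATAAA in 1 of 7, TAP2 (11.5%), and TGATGNAA, the C/EBP-ATF response element of the amino acid response, in 0 of 7 (3.62%). A gene was counted when any of its stretches matched, while the share of all promoters is per stretch, so the 2 are not in the same unit. The ERAP1 matches, GAAANNGAA at 4 after the start and CCAAT at -154, were in its second stretch. A match is a run of letters and not a bound site, and a motif not found says only that these letters are not in the window.

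Heavy chains and light chain moved in opposite directions with NXP800. At 24 h the 3 heavy chains HLA-B, HLA-C and HLA-E rose by 1.16- to 1.41-fold, while the light chain B2M, tapasin (TAPBP) and TAP2 fell to 0.643, 0.697 and 0.859 of their DMSO levels. At 6 h only HLA-B rose, 1.28-fold, and B2M, TAP1, TAP2 and the transactivator NLRC5 fell, to 0.68 to 0.902 of DMSO. Thus 1 of 9 genes rose at 6 h, where 25% of all genes tested did, and 4 of 9 fell, where 27.8% did. At 24 h 3 of 9 rose, with 27.5% of all genes, and 3 of 9 fell, with 28.6%. The counts are to be read against these shares, and nothing about the 9 genes as a set is drawn from them. The median log2 fold change of the 9 genes was -0.16 at 6 h and 0.16 at 24 h, against -0.05 and -0.0033 over all genes tested. With the replicate number as a block, 5 of 9 rose at 24 h, since TAP1 and ERAP1 then passed, and TAPBP and ERAP1 also fell at 6 h. Calls rose over all genes in that fit too, to 5117 of 15979 higher at 24 h from 4387.

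**Figure D1:**
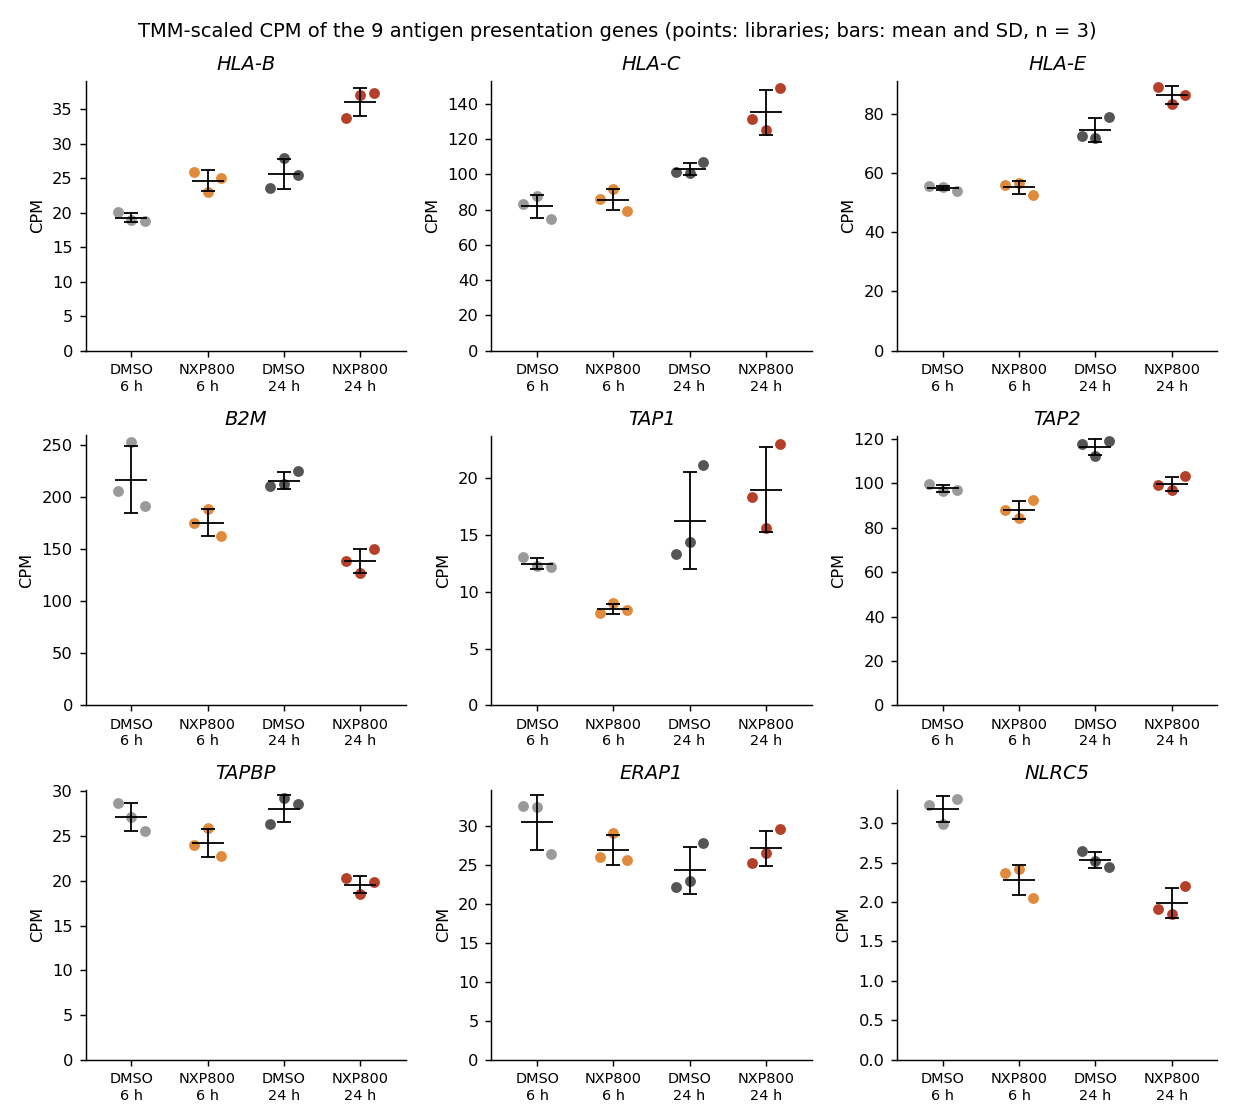
CPM (read counts scaled to library size with TMM factors, linear axes from 0) of each of the 9 genes in every library of the 4 groups, with points for libraries and bars for the mean and SD of 3 libraries. HLA-B in NXP800 libraries lies above DMSO at both times, B2M lies below DMSO at both times, and TAP1 lies below DMSO at 6 h and overlaps it at 24 h.

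The groups can also be read without a model, by whether the 3 NXP800 libraries lie wholly on one side of the 3 DMSO libraries. At 6 h 1 of 9 genes lay wholly above, as did 29.3% of all genes tested, and 4 of 9 lay wholly below, with 32.7% of all genes. At 24 h 3 of 9 lay wholly above (29% of all genes) and 4 of 9 wholly below (30.1%). The fourth gene below at 24 h was NLRC5, which did not pass the test there. In bulk libraries, fewer cells of a type and less RNA per cell cannot be told apart.

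Among the heavy chains, HLA-B, a classical class I chain, changed at both times. Its level, as CPM (read counts scaled to library size with TMM factors), was 20.02, 18.95 and 18.8 CPM in the DMSO 6 h libraries and 25.9, 23.0 and 24.96 CPM with NXP800 at 6 h. After 24 h it was 23.6, 27.9 and 25.4 CPM with DMSO and 33.7, 37.1 and 37.3 CPM with NXP800. All NXP800 libraries lay above all DMSO libraries of their time point. The log2 fold change was 0.36 (SE 0.082, adjusted p = 0.00161) at 6 h and 0.49 (SE 0.080, adjusted p = 6.82e-05) at 24 h. Here and in what follows, p comes from the quasi-likelihood test of edgeR, adjusted over all genes tested by the Benjamini-Hochberg method. Both calls stayed past the threshold in all 20 alternatives fitted to HLA-B alone, with adjusted p of at most 0.0107.

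HLA-C, the classical chain that is also the main ligand of killer-cell immunoglobulin-like receptors, rose at 24 h. It had 82.9, 87.7 and 74.8 CPM with DMSO and 85.9, 91.5 and 79.5 CPM with NXP800 at 6 h, where the groups overlapped and the log2 fold change was 0.07 (95% confidence interval -0.10 to 0.23, adjusted p = 0.499). At 24 h it had 101.5, 100.9 and 107.1 CPM with DMSO and 131.3, 124.8 and 149.1 CPM with NXP800. Every NXP800 library was above every DMSO library there, and the log2 fold change was 0.39 (SE 0.077, adjusted p = 0.000459).

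HLA-E, the non-classical chain that presents leader peptides of other heavy chains to the NKG2A receptor of natural killer cells, showed the smallest rise of the 3. Its levels at 6 h were 55.4, 55.3 and 54.1 CPM with DMSO and 56.1, 56.5 and 52.7 CPM with NXP800, and the log2 fold change was 0.0045 (95% confidence interval -0.12 to 0.13, adjusted p = 0.957). At 24 h the levels were 72.4, 71.7 and 79.0 CPM with DMSO and 89.1, 83.2 and 86.4 CPM with NXP800. These 24 h groups did not overlap, and the log2 fold change was 0.21 (SE 0.060, adjusted p = 0.00605).

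Heavy chain genes resemble each other and vary between people, so reads of this line were placed on reference alleles that it may not carry, and read sharing could move counts between them. Over 100-base windows of the MANE transcripts, 0% of HLA-B windows, 0.277% of HLA-C windows and 0.612% of HLA-E windows also occurred in another annotated gene, a check on reference alleles only. With HLA-B and HLA-C summed as 1 gene, the log2 fold change was 0.13 at 6 h (SE 0.069, adjusted p = 0.139) and 0.41 at 24 h (SE 0.069, adjusted p = 9.46e-05). Of the merged exon bases of HLA-B, 47.3% overlap another annotated gene, 32.7% on the same strand, including DHFRP2, whose reads may be left out or shared.

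B2M, the light chain that every class I heavy chain needs to reach the cell surface, moved in the opposite direction. It had 205.5, 253 and 191.7 CPM with DMSO and 175.4, 188.6 and 162.9 CPM with NXP800 at 6 h. After 24 h it had 210.4, 212.2 and 225.4 CPM with DMSO and 138.9, 127.4 and 150.2 CPM with NXP800. All NXP800 libraries were below all DMSO libraries of their time point, by a narrow gap at 6 h and a wide one at 24 h. The log2 fold change was -0.30 at 6 h (SE 0.092, adjusted p = 0.0108) and -0.64 at 24 h (SE 0.092, adjusted p = 2.18e-05). The 6 h call was lost without the highest DMSO library, replicate 2 (-0.18, adjusted p = 0.0887), and without NXP800 6 h replicate 3 (-0.25, adjusted p = 0.056). The 24 h call held in all 20 alternatives.

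The opposite courses of heavy and light chains can be set in 1 ratio, the CPM of HLA-B, HLA-C and HLA-E summed over the CPM of B2M within each library, a measure chosen after the values of its genes were seen and given without a test. The ratio was 0.771, 0.64 and 0.77 with DMSO and 0.957, 0.907 and 0.964 with NXP800 at 6 h. After 24 h it was 0.939, 0.945 and 0.938 with DMSO and 1.83, 1.92 and 1.82 with NXP800. Mean ratios were 0.727 ± 0.0751 and 0.943 ± 0.0312 at 6 h, and 0.941 ± 0.00376 and 1.86 ± 0.0585 at 24 h (SD, n = 3). Since transcript lengths differ, the ratio is a number of reads per read and not of molecules per molecule, and only its change between groups can be read.

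**Figure D2:**
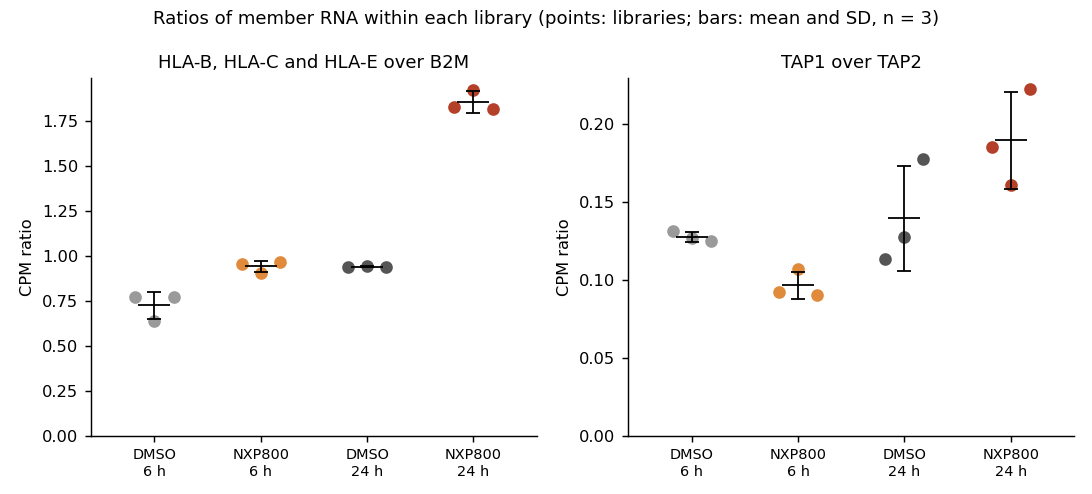
Ratio of CPM within each library for the summed heavy chains HLA-B, HLA-C and HLA-E over B2M (left) and for TAP1 over TAP2 (right), by group, with points for libraries and bars for the mean and SD of 3 libraries. The heavy to light chain ratio in NXP800 24 h libraries lies at 1.82 to 1.92 and in DMSO 24 h libraries at 0.938 to 0.945, and the TAP1 to TAP2 ratio is lowest in the NXP800 6 h libraries.

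B2M was also a reference gene in the RT-qPCR of the study, together with HPRT1, an enzyme of purine salvage. HPRT1 fell as well. Its log2 fold change was -0.21 after 6 h of NXP800 (adjusted p = 0.016) and -0.56 after 24 h (adjusted p = 4.13e-06). The HPRT1 call at 6 h was lost with 1 library left out (adjusted p up to 0.0879). The mean of the log2 fold changes of B2M and HPRT1 was -0.26 at 6 h and -0.60 at 24 h. How this moves RT-qPCR values scaled to these genes was not tested. The B2M primers of the study are shown because they mark which stretch of the light chain RNA served as a reference, and both matched the MANE transcript of 943 bases once.
B2M forward primer (exon 1, chr15:44711591-44711609, plus strand): ttctggcctggaggctatc
B2M reverse primer (exon 2, chr15:44715463-44715485, minus strand): tcaggaaatttgactttccattc
They bound an amplicon of 86 bases across the first intron, within the transcript that the counts cover.

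TAP1 and TAP2 form the peptide transporter as a heterodimer. The RNA of both fell at 6 h, and at 24 h TAP2 alone of the pair passed the test, lower than DMSO. TAP1 had 13.1, 12.3 and 12.2 CPM with DMSO and 8.11, 9.00 and 8.38 CPM with NXP800 at 6 h, without overlap. It fell, and its log2 fold change was -0.56 (SE 0.16, adjusted p = 0.00831). At 24 h it had 13.4, 14.4 and 21.2 CPM with DMSO and 18.4, 15.7 and 23.0 CPM with NXP800. The groups overlapped at 24 h because DMSO replicate 3 stood at 21.2 CPM, and the log2 fold change was 0.22 (95% confidence interval -0.10 to 0.55, adjusted p = 0.225). With the replicate number as a block TAP1 was higher at 24 h (0.23, adjusted p = 0.0175), as it was without that DMSO library (0.46, adjusted p = 0.0103). Replicate 3 was also the highest NXP800 library at 24 h, at 23.0 CPM. The other alternatives, 18 of 20, left TAP1 uncalled at 24 h. With 1 library left out at a time its value ran from 0.064 to 0.46, with adjusted p up to 0.75.

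TAP2 had 99.6, 96.6 and 96.9 CPM with DMSO and 87.9, 84.2 and 92.4 CPM with NXP800 at 6 h. After 24 h it had 117.6, 112.5 and 119 CPM with DMSO and 99.3, 97.1 and 103.4 CPM with NXP800. NXP800 libraries lay below DMSO libraries at both times, to 0.902 of the DMSO level at 6 h and 0.859 at 24 h in the fit. TAP2 fell at 6 h by 0.15 on the log2 scale (SE 0.056, adjusted p = 0.0351), a call lost in 11 of the 19 alternatives with the same threshold (adjusted p up to 0.156), and fell at 24 h by 0.22 (SE 0.056, adjusted p = 0.0032). The 24 h call was lost where libraries were scaled by their size only (-0.13, adjusted p = 0.052). TAP2 shares 34.7% of its 100-base windows with the annotated read-through transcript ENSG00000250264, and 14.2% of the exon bases of TAP1 overlap the antisense gene PSMB8-AS1.

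The ratio of TAP1 to TAP2 CPM was 0.128 ± 0.00308 with DMSO and 0.0966 ± 0.00888 with NXP800 at 6 h, and 0.14 ± 0.0337 and 0.19 ± 0.0311 at 24 h (SD, n = 3). It was given without a test, as a measure chosen after the values were seen.

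Tapasin, the TAPBP product that bridges the heavy chain to the transporter and edits its peptide, was lower at 24 h. TAPBP had 28.7, 27.2 and 25.6 CPM with DMSO and 24.0, 26.0 and 22.8 CPM with NXP800 at 6 h, with overlapping groups. The log2 fold change there was -0.16 (95% confidence interval -0.33 to 0.0020, adjusted p = 0.0901). It passed with the replicate number as a block (-0.17, adjusted p = 0.0405) and stayed uncalled in the other 19 of 20 alternatives (adjusted p up to 0.285). At 24 h it had 26.3, 29.3 and 28.6 CPM with DMSO and 20.3, 18.5 and 19.9 CPM with NXP800. These groups lay well apart, and TAPBP fell with a log2 fold change of -0.52 (SE 0.080, adjusted p = 3.76e-05), a call kept in all 20 alternatives. Of its exon bases, 21% overlap ENSG00000289100 on the other strand.

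ERAP1 trims the amino end of peptides to the length that fits the groove. It had 32.5, 32.4 and 26.3 CPM with DMSO and 26.0, 29.0 and 25.6 CPM with NXP800 at 6 h, then 22.2, 22.9 and 27.7 CPM with DMSO and 25.2, 26.4 and 29.6 CPM with NXP800 at 24 h. The groups overlapped at both times. The log2 fold changes were -0.18 at 6 h (95% confidence interval -0.40 to 0.04, adjusted p = 0.163) and 0.16 at 24 h (95% confidence interval -0.06 to 0.38, adjusted p = 0.209). With the replicate number as a block both passed, lower at 6 h (-0.17, adjusted p = 0.0246) and higher at 24 h (0.16, adjusted p = 0.0397). The 24 h value also passed where libraries were scaled by their size only (0.25, adjusted p = 0.0493). The 6 h value also passed without DMSO 6 h replicate 3 (-0.27, adjusted p = 0.0414), the DMSO library with the lowest level. In the other alternatives, 18 of 20 at each time, ERAP1 stayed uncalled. Adjusted p ran up to 0.393 at 6 h and 0.523 at 24 h.

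NLRC5 was the least abundant of the 9 genes, with 58 to 109 reads per library. It had 3.23, 3.00 and 3.31 CPM with DMSO and 2.36, 2.42 and 2.06 CPM with NXP800 at 6 h, and 2.64, 2.52 and 2.44 CPM with DMSO and 1.92, 1.85 and 2.20 CPM with NXP800 at 24 h. All NXP800 libraries were below the DMSO libraries of their time point. NLRC5 fell at 6 h (log2 fold change -0.48, SE 0.15, adjusted p = 0.0111), a call lost without NXP800 6 h replicate 3 (-0.41, adjusted p = 0.0552). At 24 h the value was -0.35 (95% confidence interval -0.67 to -0.03, adjusted p = 0.0623), and it passed without NXP800 24 h replicate 3 (-0.43, adjusted p = 0.046). It stayed uncalled in the other 19 of 20 alternatives (adjusted p up to 0.229).

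Whether a gene responded differently at the 2 times was tested by subtracting its 6 h log2 fold change from its 24 h log2 fold change. Of the 9 genes 2 were higher in this contrast, TAP1 and HLA-C, where 12% of all genes were, and 1 was lower, TAPBP, where 13.8% were. TAP1 differed most, by 0.78 on the log2 scale (SE 0.22, adjusted p = 0.017), and passed at the same threshold in all alternatives tried. HLA-C differed by 0.32 (SE 0.11, adjusted p = 0.0405) and TAPBP by -0.36 (SE 0.11, adjusted p = 0.0277), and both calls were fragile, holding in 10 and 9 of 19 alternatives, with adjusted p up to 0.112 and 0.079 over left-out libraries, other scalings and filters. The difference was 0.21 for HLA-E (adjusted p = 0.0826), -0.33 for B2M (adjusted p = 0.0704) and 0.34 for ERAP1 (adjusted p = 0.106). With the replicate number as a block these 3 also passed, at 0.21 (adjusted p = 0.0255), -0.34 (adjusted p = 0.00113) and 0.34 (adjusted p = 0.00747), in a fit where 2945 of all genes were higher and 3339 lower. HLA-B, TAP2 and NLRC5 had intervals that covered 0, from -0.11 to 0.38, from -0.24 to 0.10 and from -0.32 to 0.58.

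**Figure D3:**
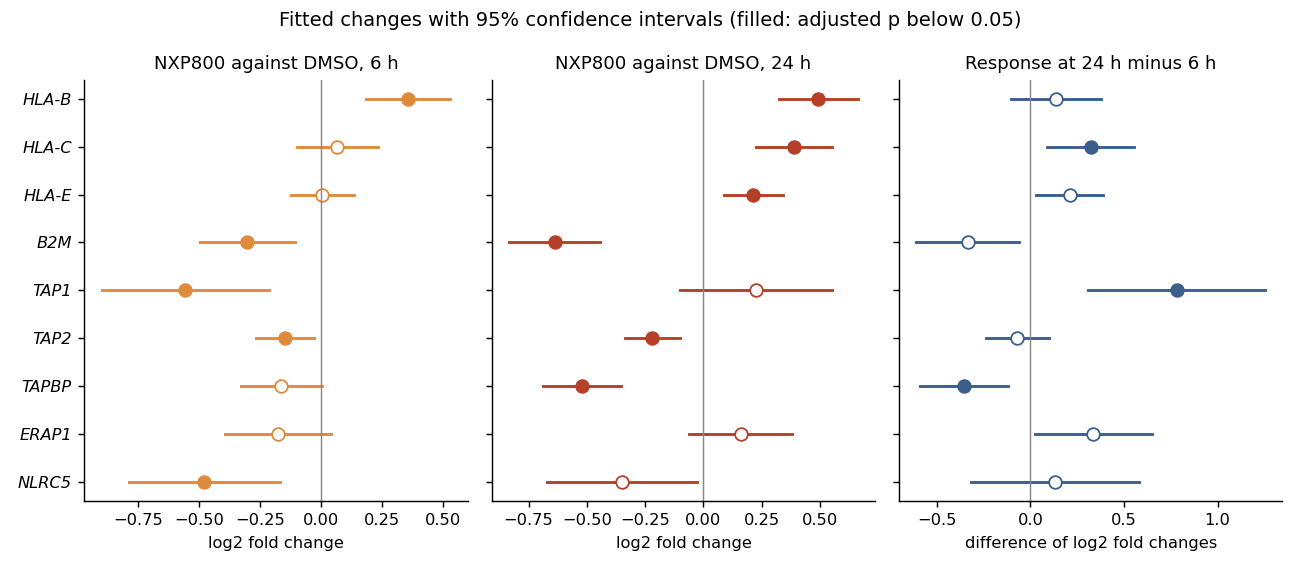
Fitted log2 fold change of NXP800 against DMSO at 6 h (left) and 24 h (middle), and the difference between them (right), for the 9 genes, with lines for 95% confidence intervals and filled points for an adjusted p below 0.05. At 24 h the heavy chains lie right of 0, from 0.21 to 0.49, and B2M, TAP2 and TAPBP lie left of it, from -0.64 to -0.22.

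Levels of different genes can be compared only per length. Per kilobase of merged exons, B2M stood highest in DMSO libraries (69.4 ± 10.3 CPM per kilobase at 6 h and 69.2 ± 2.62 at 24 h), followed by HLA-C (32.6 ± 2.61 and 41.2 ± 1.36), HLA-E (18.8 ± 0.26 and 25.5 ± 1.37), TAP2 (9.44 ± 0.16 and 11.2 ± 0.33) and HLA-B (4.16 ± 0.15 and 5.54 ± 0.473). TAPBP (4.08 ± 0.235 and 4.22 ± 0.231), ERAP1 (3.83 ± 0.444 and 3.05 ± 0.38) and TAP1 (2.64 ± 0.107 and 3.44 ± 0.895) came next, and NLRC5 was lowest (0.257 ± 0.0133 and 0.205 ± 0.0083). HLA-B and TAPBP overlapped at 6 h, TAPBP and ERAP1 overlapped at 6 h, and TAP1 overlapped both TAPBP and ERAP1 at 24 h. With NXP800 at 24 h HLA-C (53.9 ± 5.02) stood above B2M (44.5 ± 3.65), though by the length of the MANE transcript B2M stayed first (147.2 ± 12.1 against 87.6 ± 8.16). The order among heavy chains also rests on how well the alleles of this line match the reference.

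Outside the 9 genes, 87 further genes were listed by their role in the pathway, and 75 passed the filter on low counts. Of these 15 rose and 28 fell at 6 h (median log2 fold change -0.14), and 15 rose and 34 fell at 24 h (median -0.15). For these and the lists that follow, the shares over all genes tested were 25% higher and 27.8% lower at 6 h, and 27.5% higher and 28.6% lower at 24 h. The lists are described by their counts and medians, with no test of a list against these shares.

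The 13 genes listed for loading and trimming in the endoplasmic reticulum also include general signal peptide processing genes and the endosomal peptidase LNPEP. Of the 13, 0 rose and 8 fell at 6 h (27.8% of all genes fell), and 1 rose and 6 fell at 24 h (28.6%). The 8 were CALR, ERAP2, BCAP31, PDIA3, LNPEP and the signal peptide processing genes SPCS1, SPCS3 and HM13. CALR, the lectin chaperone of the loading complex, fell by 0.69 at 6 h and by 1.08 at 24 h on the log2 scale. ERAP2, the second trimming peptidase, fell by 1.48 and 1.06, at only 15 to 70 reads per library. CANX, the membrane-bound lectin that holds new heavy chains, was the gene that rose at 24 h (0.23), and BCAP31, an export receptor for class I, fell by 0.44. The CANX call was lost with 1 library left out (adjusted p up to 0.123). The list median was -0.29 at 6 h and -0.16 at 24 h.

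Upstream of the transporter, 1 of 8 genes of the immunoproteasome and proteasome activators rose and 4 fell at 6 h, and 0 rose and 5 fell at 24 h. PSMB10, an interferon-inducible catalytic subunit, fell by 0.61 at 6 h and by 0.56 at 24 h, and PSMB9, whose gene neighbours TAP1, fell by 0.94 at 24 h. The PSMB9 call, at 20 to 73 reads per library, was lost with 1 library left out (adjusted p up to 0.152). PSME4, the activator PA200, was the gene that rose at 6 h (0.38). Of the 3 constitutive subunits that the immunoproteasome replaces, 1 fell at 6 h and 2 at 24 h, with PSMB5 at -0.44 and -0.61, PSMB6 at -0.15 and -0.28 and PSMB7 at -0.05 and 0.08. Among 6 cytosolic peptidases, which destroy or trim peptides before transport, 5 fell at each time, led by BLMH (-0.56 and -0.63).

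Other class I and class I-like chains gave mixed values. Of 7 listed 5 were tested, 0 rose and 1 fell at 6 h, and 1 rose and 3 fell at 24 h. HFE, which regulates iron uptake, fell by 1.51 and 2.06, HLA-F by 0.83 and the neonatal Fc receptor chain FCGRT by 0.47 at 24 h, while MR1, which presents vitamin B metabolites, rose by 0.87 at 24 h. The products of HFE, HLA-F, FCGRT and MR1 all pair with B2M, so partners of B2M moved in both directions.

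The listed transcription factors of class I genes moved in both directions, with 7 of 16 up and 6 down at 6 h and 4 up and 4 down at 24 h. ATF1 (0.90), NFKB1 (0.85) and CREB1 (0.62) rose at 6 h, and CIITA, the class II transactivator, fell at 0.378 to 0.784 CPM (-1.04). The CIITA call was lost with 1 library left out (adjusted p up to 0.106). IRF1, an activator bound at interferon response elements, rose at both times (0.43 and 0.78), as did RELA, a subunit of NF-kB (0.36 and 0.33). RFX5, the DNA-binding subunit of the complex that NLRC5 joins, fell at 24 h (-0.58), as did NFYB (-0.34). Of the 3 PRC2 subunits, which silence class I genes in some tumours, EZH2 rose at 6 h (0.34), EED fell at both times (-0.22 and -0.30) and SUZ12 fell at 24 h (-0.26). The EED call at 6 h was lost with 1 library left out (adjusted p up to 0.114).

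Among 18 tested interferon-stimulated genes, 1 rose and 6 fell at 6 h (27.8% of all genes fell), and 0 rose and 11 fell at 24 h (28.6% of all genes fell), with medians of -0.43 and -0.80. BST2 (-3.48), IFIT1 (-3.31) and IFI6 (-1.82) fell most at 24 h, from DMSO means of 0.52, 1.95 and 4.43 CPM. PSMB9 is in this list too. Among 7 interferon receptors and kinases, 1 rose and 1 fell at 6 h, and 2 rose and 3 fell at 24 h, with IFNGR2 at -0.58 and JAK2 at 0.37 at 24 h. The JAK2 call at 24 h was lost with 1 library left out (adjusted p up to 0.0611).

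The class I turnover list holds genes of protein removal, not all of them particular to class I chains. It includes SPPL2A and TRIM21, which have wider roles. Of 9 tested genes 4 were higher and 0 lower at 6 h (25% of all genes rose). At 24 h 7 were higher and 1 lower (27.5% rose). SPPL2A was among those higher at both times (0.18 and 0.46), and TRIM21 was higher at 24 h (0.37). The SPPL2A call at 6 h was lost with 1 library left out (adjusted p up to 0.151). SUSD6, WWP2 and TMEM127, which together mark class I for degradation, were at 0.39, 0.30 and -0.14 at 6 h and rose by 0.56, 0.40 and 0.26 at 24 h. UBE2J1, a ubiquitin conjugase of the endoplasmic reticulum, rose at both times (0.28 and 0.55). Of 14 class II presentation genes 5 passed the filter, with 1 up and 1 down at 6 h and 0 up and 3 down at 24 h, while the class II chain HLA-DRA had 0 reads in all 12 libraries.

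**Figure D4:**
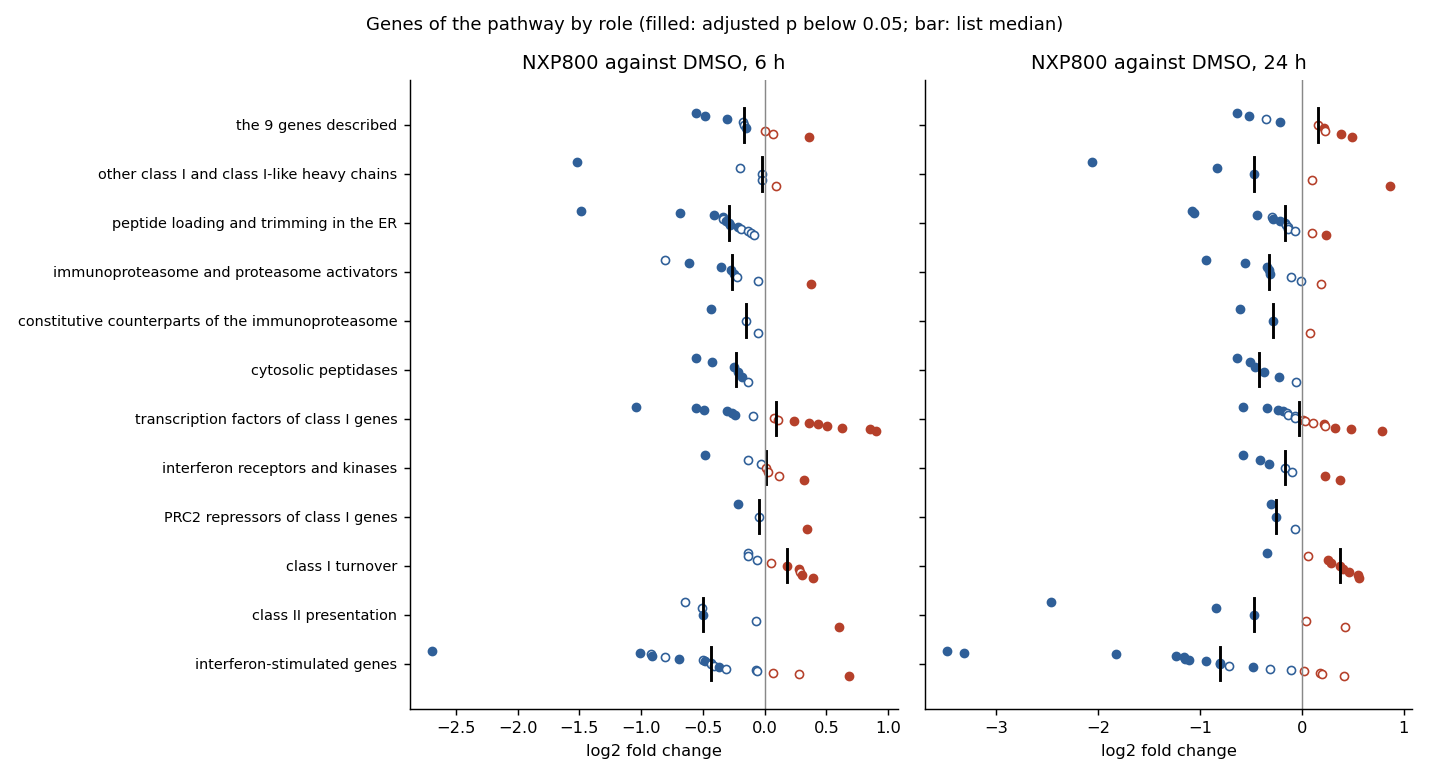
Log2 fold change of NXP800 against DMSO at 6 h (left) and 24 h (right) for every tested gene of the pathway lists, with filled points for an adjusted p below 0.05 and a black bar at the median of each list. Points of the interferon-stimulated genes reach -3.48 at 24 h, and the class I turnover list has its median at 0.37 there.

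Over the 12 libraries, which share treatment and time, the genes outside the 9 whose log2 CPM ran most like that of HLA-B were GSE1 (Pearson r = 0.992), AP5Z1 (0.983) and STX5 (0.98), out of 9583 genes of at least moderate level. For B2M they were PPARG (0.982), NDUFB6 (0.976) and MRPS22 (0.976), and for NLRC5 FNIP2 (0.939), HSPB11 (0.936) and SLC35G1 (0.93). These are descriptions of likeness over 4 groups of libraries and carry no test.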

How the data were processed

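Deposited values are raw read counts per gene symbol, 1 table per library. Per the submitters' processing notes, the authors used fastp 0.20.1, STAR 2.7.5a and HTSeq 0.12.4 with GRCh38.p14. The strand and overlap settings of the counting are not given in the sources used here, although the kit marks strand. Rows for reads outside features, ambiguous or not unique were left out of library sizes. Counts were analysed with edgeR 4.0.16 in R 4.3.3: filterByExpr, TMM scaling, and the quasi-likelihood test in 1 model of the 4 groups, with Benjamini-Hochberg adjustment over 15979 genes and calls at an adjusted p below 0.05. CPM are TMM-scaled. Exon lengths and overlaps come from GENCODE 44, and positions and promoters from RefSeq GRCh38.p14. Every pair of libraries with the same replicate number within a time point deviated together (r = 0.159 to 0.329 over genes, against -0.268 to 0.058 for unlike numbers), so a fit with this number as a block is given where it changed a call. No 2 libraries agreed within sampling noise (chi-square per degree of freedom of 7.36 or more). The 9 genes, the lists, the motifs and the tests were chosen with earlier results of these data known. The text names the 9 genes, up to 3 called genes each way per list and time, whole lists of fewer than 4 genes, the 3 genes most like HLA-B, B2M and NLRC5, and HPRT1. TMEM127, TRIM21, PDIA3, LNPEP, SPCS1, HM13, PTPRC, MS4A1, HLA-DRA and the reference to DHFRP2 lie outside that rule. Fits were tested on simulated data. DESeq2 1.42.0 and other scalings, filters, thresholds and left-out libraries were alternatives.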

Additional observations from a re-analysis of the deposited data

Results flagged for a closer look

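For 3 of the 9 genes the response to NXP800 differed between 6 h and 24 h by the test of the difference itself (edgeR quasi-likelihood, adjusted by the Benjamini-Hochberg method), as did 4129 of the 15979 genes tested. TAP1 differed by 0.782 on the log2 scale (adjusted p = 0.017), being below DMSO in 3 of 3 libraries at 6 h and overlapping it at 24 h. HLA-C differed by 0.322 (adjusted p = 0.0405), with overlap at 6 h and 3 of 3 libraries above DMSO at 24 h. TAPBP differed by -0.356 (adjusted p = 0.0277), with overlap at 6 h and 3 of 3 libraries below DMSO at 24 h. The HLA-C and TAPBP calls held in 10 and 9 of 19 alternatives. The share of reads outside annotated features was higher at 6 h than at 24 h, and the part of this in the difference was not tested.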

How the results depend on the processing

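HLA-B, B2M, TAPBP, HLA-C and HLA-E at 24 h kept their direction and their call in all alternatives. With 1 library left out at a time, the number of genes lower at 6 h ran from 2 to 4 (2 without DMSO 6 h replicate 2 or NXP800 6 h replicate 3), higher at 24 h from 3 to 4, and in the response at 24 h minus 6 h from 1 to 4 higher and from 0 to 2 lower. An adjusted p below 0.01 left 1 gene lower at 6 h and 0 higher and 0 lower in that difference. The replicate block gave 5 higher at 24 h, and 4 higher and 2 lower in the difference, while calls over all genes rose to 5117 higher at 24 h and to 2945 higher and 3339 lower in the difference, and changed no call besides those given with the genes above. DESeq2 size factors gave 1 higher in the difference, and scaling by library size only gave 4 higher and 0 lower. That scaling moved the median of all genes at 24 h from -0.0033 to 0.0859 and the calls over all genes in the difference from 1924 higher and 2205 lower to 2463 and 1670. HLA-E at 6 h ran up to 0.0373 with 1 library left out and turned below 0 without DMSO 6 h replicate 3 (-0.00671), NXP800 6 h replicate 1 (-0.00773) or replicate 2 (-0.0131), and TAP2 in the difference was 0.00183 with library size only. Over the other genes named by rule, 1950 refits kept the call, 95 lost it and 0 reversed. The cause of these shifts was not tested. NLRC5, with 58 to 109 reads per library, has the widest counting error of the 9.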
